A study of Mus musculus with 3 samples.

Results

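The cells described here came from the muscularis externa, the muscle layer of the gut wall, and were gated as T cells by transcripts of the T cell receptor complex, with little of 4 genes of cytotoxic and gamma-delta T cells. The name holds for only some of them, as given below, and "gated T cells" refers to the gate. They were chosen by their own UMIs (unique molecular identifiers, 1 per captured transcript). A gated T cell held at least 2 UMIs of Cd3d, Cd3e, Cd3g, Trac, Trbc1 and Trbc2 together, at most 1 UMI of Gzma, Gzmb, Cd8a and Trdc together, 0 UMIs of the B cell genes Cd79a and Ms4a1, and less than 0.3% of its UMIs from the myeloid gene Lyz2. This rule took 155 of 4102 cells, 3.78% of the series.

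The series holds 3 libraries of CD45+ cells sorted from the small intestinal muscularis of WT C57BL/6J mice aged 12 weeks: 1 of naïve mice, 1 taken 24 h and 1 taken 72 h after intestinal manipulation, a surgical handling of the gut that inflames the muscle layer. Each library was a pool of 3 to 4 mice, which leaves 1 library per time point and no test between time points. A difference between times cannot be told apart from one between libraries. Of the 155 cells, 44 came from naïve mice, 36 from the 24 h pool and 75 from the 72 h pool, with 114507, 105215 and 248094 UMIs. Their median depth was 2303, 2288 and 2958 UMIs per cell, and only 1 of them had a barcode that occurred in more than 1 library.

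T cells recognise antigen through a receptor made of a variable alpha and beta chain, or gamma and delta chain, that signals through the CD3 chains. Trac encodes the constant part of the alpha chain, Trbc1 and Trbc2 that of the beta chain, and Cd3d, Cd3e, Cd3g and Cd247 encode the CD3 chains. In the gut wall, CD4+ helper T cells are commonly grouped by transcription factors that include Tbx21 (type 1), Gata3 (type 2) and Foxp3 (regulatory). Innate lymphoid cells and natural killer cells use some of the same factors without a rearranged antigen receptor, and transcripts of the unrearranged beta chain locus are known in them.

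The receptor genes divided the gate. Among the 155 cells, 110 held UMIs of Cd3d, Cd3e, Cd3g or Trac, and 45 cells, 29.0% of the gate (95% Clopper-Pearson interval 22.0 to 36.9%), held none and had been admitted by Trbc1 and Trbc2 alone. These 45 are called Trbc-only cells below. Trbc1 (ENSMUSG00000076490.6, plus strand, chr6:41538218-41539881) and Trbc2 (ENSMUSG00000076498.2, plus strand, chr6:41546730-41548352) are neighbouring genes in GRCm38. Their coding sequences in GENCODE vM21 were identical at 495 of 518 positions (95.6%), against 43.1% of the aligned positions of their 3′ UTRs. The last 90 coding bases of each, bases 429 to 518 of the annotated coding sequence, are shown because the membership of the Trbc-only cells rested on these genes alone. Capitals mark the 14 positions at which they differ.
Trbc1: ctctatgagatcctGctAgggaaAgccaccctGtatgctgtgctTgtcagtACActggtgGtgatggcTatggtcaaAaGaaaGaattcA
Trbc2: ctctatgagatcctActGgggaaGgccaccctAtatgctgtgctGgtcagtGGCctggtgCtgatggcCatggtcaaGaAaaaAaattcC

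Over the 3 libraries together, the Trbc-only cells were not shallower than the others. They had a median of 2626 UMIs and 1227 genes per cell, and the other gated cells 2498.5 UMIs and 1149.5 genes. In the naïve library alone they were, with a median of 1678 UMIs against 2410. The other gated cells held a median of 9.5 UMIs of Cd3d, Cd3e, Cd3g and Trac together, and only 16 of the 110 held 1 to 3. The gate itself required at least 2 Trbc1 and Trbc2 UMIs of a Trbc-only cell, and their median was 4, beside 6.5 in the others. Trbc2 was found in 108 and Trbc1 in 57 of the 110 cells with CD3 chain or Trac UMIs. Among the Trbc-only cells Trbc2 was found in 36, Trbc1 in 34 and both in 25.

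**Figure D1:**
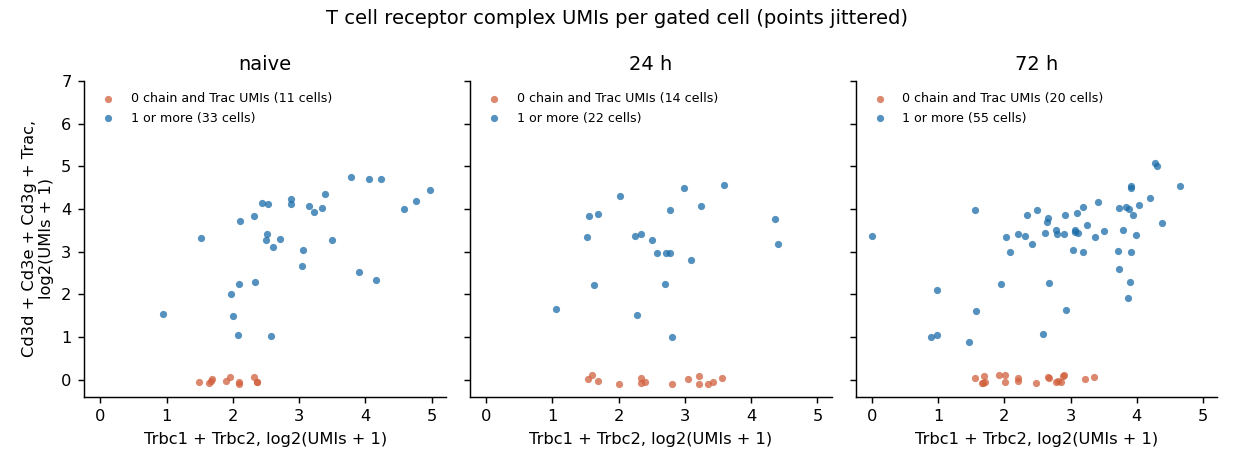
Each point is 1 gated T cell of the naïve, 24 h or 72 h library, with the summed UMIs of Trbc1 and Trbc2 on the x axis and those of Cd3d, Cd3e, Cd3g and Trac on the y axis, both as log2(UMIs + 1) and slightly jittered. A row of 11, 14 and 20 cells lies at 0 on the y axis in the 3 libraries, apart from the 33, 22 and 55 cells above it.

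The share of Trbc-only cells was 25.0% of the gate in the naïve library (11 of 44 cells, 13.2 to 40.3%), 38.9% at 24 h (14 of 36, 23.1 to 56.5%) and 26.7% at 72 h (20 of 75, 17.1 to 38.1%). The 3 intervals overlapped. Cd247, the CD3 zeta chain, was used neither by the gate nor by this division. It had 61 UMIs in 40 of the 110 cells with CD3 chain or Trac UMIs and 0 UMIs in the 45 Trbc-only cells, which allows a share of up to 6.67% of cells with a UMI (3 counts of the 45 cells). The label of the gate, T cells, was therefore borne out by the markers in the 110 cells only, and the 45 are described by their leading genes. The division was made after the values had been seen, so it is a description without a test. Intervals here are given at 95% throughout and describe counting error alone.

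Of the 3209 genes with at least 20 UMIs in the gated T cells, 208 were at least 2-fold higher in the Trbc-only cells than in the others (6.48%) and 252 at least 2-fold lower (7.85%), with 0 UMIs counted as 3. The level here is CPM, the UMIs of a gene per 1000000 UMIs, summed over the cells of a group. Of 15 genes of T cell receptor signalling that could be compared, 8 were at least 2-fold lower, 1 was higher, and the median log2 ratio was -1.17, beside 0.02 over all genes. The 8 were Sh2d1a, Cd2, Lck, Lat, Fyb, Trat1, Cd5 and Cd6. Lat, the adaptor that links the receptor to its downstream enzymes, stood at 83.0 CPM in the Trbc-only cells and 564 CPM in the others. The exception was Txk, a TEC family kinase.

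Co-stimulatory genes followed the same side. Of 12 that could be compared, Cd28, Ctla4, Icos, Cd40lg, Tnfsf8 and Tnfrsf4 were at least 2-fold lower in the Trbc-only cells and Pdcd1 was higher, with a median log2 ratio of -1.21. Cd28, the main co-stimulatory receptor of T cells, was found in 48 of the 110 cells and in 2 of the 45. Cd40lg, the ligand by which helper T cells activate B cells and dendritic cells, was found in 31 of the 110, the co-receptor Cd4 in 26, the cytokine gene Il17a in 11 and Foxp3 in 6. None of these, Cd28 apart, had a UMI in a Trbc-only cell. The naive or central memory genes Klf2, Klf3, Tcf7 and Ms4a4b were also at least 2-fold lower there, 4 of 7 compared.

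By ratio, among genes with at least 100 CPM on either side, the genes highest in the Trbc-only cells were led by Klrb1f, Upp1, Ccdc184, Calca, Csf2, Klrb1b, Gem, Gzmc, Ncr1, Slc6a13 and Klrb1c, and each of these 11 was higher in the Trbc-only cells of all 3 libraries. Klrb1f, Klrb1b, Klrb1c and Ncr1 among them encode receptors known from natural killer and innate lymphoid cells. Rasl11a, next by ratio, was higher in the Trbc-only cells of 2 libraries and lower in those of the naïve library (0 UMIs against 4). Ncr1, the activating receptor NKp46, had 4 UMIs in the naïve, 11 in the 24 h and 17 in the 72 h Trbc-only cells, against 5, 2 and 1 in the larger group of other gated cells. That was 242 CPM against 23.9 CPM, a ratio of 10.1 (4.57 to 25.4). Klrb1b, a lectin-like receptor of the NKR-P1 family, had 11, 14 and 21 UMIs against 2, 5 and 3.

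Calca encodes calcitonin and the neuropeptide CGRP. It had 8, 2 and 24 UMIs in the naïve, 24 h and 72 h Trbc-only cells, all in 6 cells, and 0 UMIs in the other gated cells. With that 0 set to 3 counts, the ratio was 28.7. The lower end of its counting interval was 22.1, which does not take into account that several UMIs lay in the same cell. Csf2, the cytokine GM-CSF, had 25, 7 and 5 UMIs in 7 Trbc-only cells and 2, 2 and 3 UMIs in 7 of the other cells. Gata3 reached 430 CPM in the Trbc-only cells and 164 CPM in the others, a ratio of 2.62 (1.78 to 3.87). Of 4 type 2 genes compared 3 were at least 2-fold higher in the Trbc-only cells, Gata3, Areg and Il17rb, and the chemokine receptor Ccr4 was at least 2-fold lower. Of 6 markers of natural killer and innate lymphoid cells, Gata3, Klrb1c and Ncr1 were at least 2-fold higher and none at least 2-fold lower. Eomes, on the same list but with too few UMIs to be compared, went the other way. It had 0 UMIs in the Trbc-only cells of every library and some UMIs in the other gated cells of each. Klra8 of that list had 0 UMIs in both groups. Of 13 interferon-stimulated genes, 4 were at least 2-fold lower in the Trbc-only cells and none higher.

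**Figure D2:**
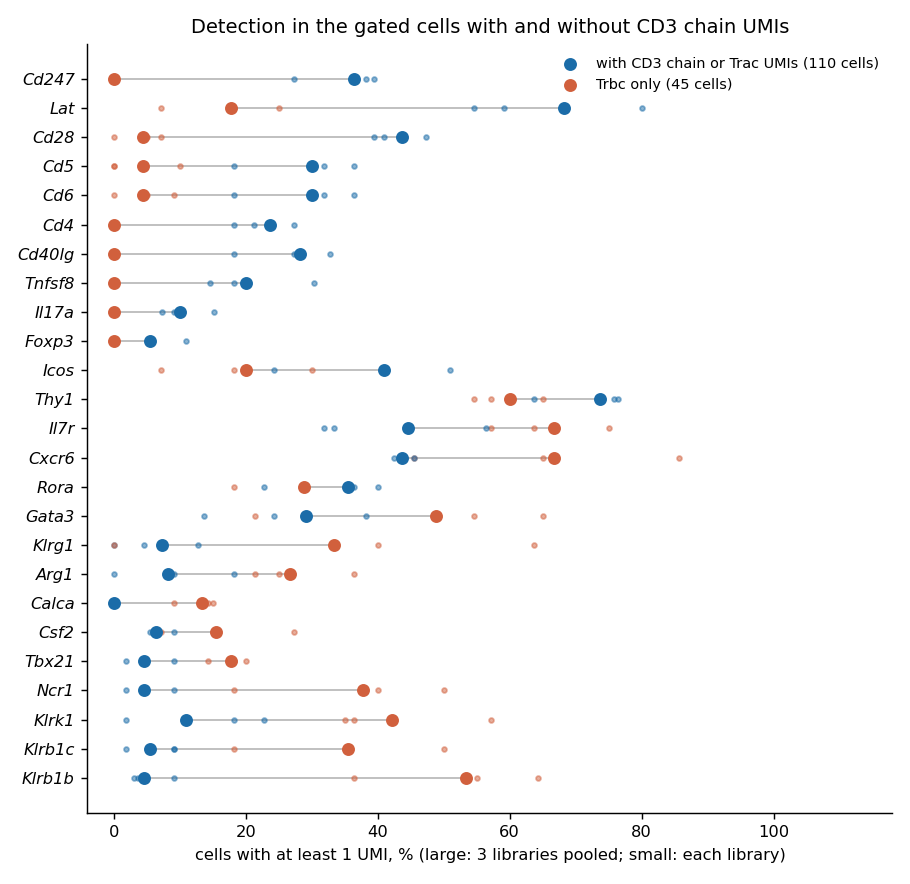
Each row is a gene, with the percentage of cells that held at least 1 UMI on the x axis, in the 110 gated cells with CD3 chain or Trac UMIs (blue) and the 45 Trbc-only cells (orange). Large points pool the 3 libraries and small points are the single libraries. Cd247, Cd4, Cd40lg, Tnfsf8, Il17a and Foxp3 lie at 0 in the Trbc-only cells, and Klrb1b, Ncr1, Klrk1 and Klrb1c lie to the right of the other cells.

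The Trbc-only cells differed among themselves in the genes they held. Ncr1, Klrk1 (NKG2D) or Klrb1c (NK1.1) was found in 23 of the 45, and Gata3, Klrg1, Calca or Il17rb (a receptor subunit for interleukin-25) in 25. Only 7 cells held genes of both sets and 4 held neither. These sets were formed after the values had been seen. Of the 110 other gated cells, 16 held a gene of the first set and 36 a gene of the second. Among the 17 Trbc-only cells with Ncr1, 14 also held Klrk1 and 12 Klrb1c, while 1 held Klrg1, none held Il17rb or Csf2 and 3 held Gata3. Among the 22 with Gata3, 13 held Klrg1, 9 Arg1, 7 Il17rb, 6 Csf2, 6 Areg and 5 Calca. As background, Gata3, Klrg1, Il17rb, Areg and Calca are used to recognise group 2 innate lymphoid cells. Other list genes at low levels were Il4 (9 UMIs in 5 cells) and Il13 (7 UMIs in 3 cells).

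The 110 cells with CD3 chain or Trac UMIs held several helper programmes, each in few cells. Cd4 was found in 26 of them, and 25 of those 26 also held Trac. With Cd4, 12 cells held Gata3, 12 Cd40lg, 14 Icos, 2 Foxp3 and none Tbx21. Il17a, the cytokine that defines type 17 cells, was found in 11 cells, of which 10 held Cxcr6, 8 Cd40lg, 8 Icos, 9 Trac and 4 the gamma chain gene Tcrg-C2. Tcrg-C2 had UMIs in 27 of the 110, and 20 of these also held Trac. The limit of 1 UMI on Cd8a, Gzma, Gzmb and Trdc thus left gamma chain transcripts in the gate, and Ccl5, a chemokine of cytotoxic cells, still reached 2751, 1540 and 2543 CPM in the naïve, 24 h and 72 h gated T cells, against 37786, 14732 and 19687 CPM in the cytotoxic and gamma-delta T cells.

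Of the 5 supplied marker genes, 4 were present on both sides of the division. Trac, the other, was found in 90 of the 110 cells and in no Trbc-only cell, by their definition. Thy1 was found in 108 of the 155 gated T cells, Il7r in 79, Cxcr6 in 78 and Icos in 54. As a guide to free RNA, for genes that B cells should lack, 316 gated B cells were set beside them. These held at least 2 UMIs of Cd79a and Ms4a1 and 0 of the CD3 and constant chain genes. Their median was 1841 UMIs, against 2609 in the gated T cells. Thy1 and Cxcr6 were each found in 0.633% of the gated B cells, Il7r in 0.316% and Icos in 0%. Cxcr6, a chemokine receptor of tissue-resident lymphocytes, was at 732 CPM in the Trbc-only cells and 370 CPM in the others. Icos lay the other way, at 83.0 and 224 CPM.

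The genes found together with Cxcr6 most often, by the phi coefficient over the 155 cells, were Tmem176a (62 of its 86 cells held Cxcr6), Tmem176b (58 of 84), Ckb (44 of 58) and Id2 (73 of 120). Of 16 cells with Izumo1r, a folate receptor family member of T cells, 1 held Cxcr6. The cells share libraries and differ in depth, and such counts are a description.

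The gate took 6.75% of the naïve library (4.95 to 8.95%), 1.63% of the 24 h library (1.14 to 2.25%) and 6.05% of the 72 h library (4.79 to 7.53%). The low value at 24 h stood in a library of 2211 cells, against 652 and 1239, and fewer T cells and more other cells cannot be told apart in a share. Within the cells that passed either T cell gate, the share of the gated T cells was 24.3% in the naïve library (44 of 181, 18.3 to 31.2%), 57.1% at 24 h (36 of 63, 44.0 to 69.5%) and 58.1% at 72 h (75 of 129, 49.1 to 66.8%). Of these gated T cells, 13, 3 and 18 held the 1 UMI of the cytotoxic and gamma-delta genes that the gate allowed. The Trbc-only cells among them numbered 11, 14 and 20. The naïve interval of this share lay below those of both later libraries. These intervals describe counting error alone, and differences between pools of mice are not in them. Over the same libraries the cytotoxic and gamma-delta T cells made up 21.0%, 1.22% and 4.36% of all cells.

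**Figure D3:**
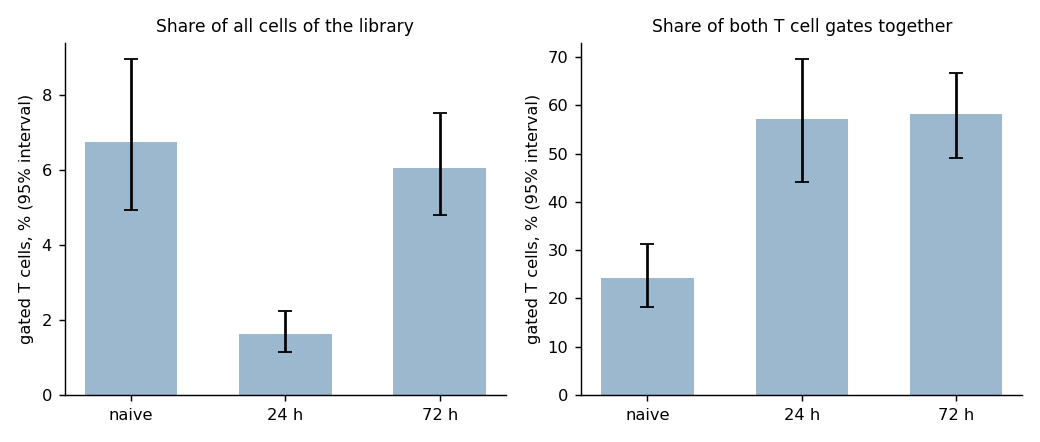
Bars give the gated T cells as a percentage of all cells of each library (left) and of the cells that passed either T cell gate (right), with 95% Clopper-Pearson intervals, for the naïve, 24 h and 72 h libraries. The left bars are 6.75, 1.63 and 6.05% and the right bars 24.3, 57.1 and 58.1%.

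The edges of the gate were populated. With exactly 2 CD3 and constant chain UMIs, 14 cells lay just inside, and 58 cells with exactly 1 such UMI lay just outside. Thy1 was found in 7 of the 14 and in 5 of the 58, and the antigen presentation gene Cd74 in 8 and in 49. With exactly 1 UMI of the cytotoxic genes, 34 cells lay inside, and 14 cells with exactly 2 lay outside. Lyz2 kept out 26 cells and the B cell genes 7.

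By time point, the level of the co-stimulatory receptor Tnfrsf4 (OX40) was highest at 72 h. It had 4, 5 and 50 UMIs in the naïve, 24 h and 72 h cells, or 34.9, 47.5 and 202 CPM, and 49 of the 50 UMIs at 72 h were in cells with CD3 chain or Trac UMIs. These UMIs lay in 4, 4 and 13 cells, or 9.1, 11.1 and 17.3% of the gated T cells. Several UMIs thus lay in the same cell at 72 h, which the intervals below do not take into account. The ratio of 72 h over naïve was 5.77 (2.12 to 22.0), and of 72 h over 24 h it was 4.24 (1.70 to 13.6). Tnfrsf18 (GITR), a relative of Tnfrsf4, stood at 218, 200 and 419 CPM, and Tnfrsf9 (4-1BB) at 17.5, 28.5 and 96.7 CPM. All 3 were highest at 72 h. Of 9 co-stimulatory and checkpoint genes compared between 72 h and 24 h, 5 were at least 2-fold higher and none at least 2-fold lower. Over all 2506 genes compared in these libraries 6.38% were at least 2-fold higher and 5.43% at least 2-fold lower. With TMM scaling 71.8% of the genes past the fold were higher, against 54.1% by CPM.

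Foxp3, the factor that defines regulatory T cells, had 14 UMIs in 6 cells at 72 h and 0 UMIs at 24 h and in the naïve library. With the limit of 3 counts, the 0 allows up to 6.82% of the 44 naïve cells and up to 8.33% of the 36 cells at 24 h to hold a UMI, while the share at 72 h was 8.0% (2.99 to 16.6%), so a difference was not detectable at this depth. Of the 6 cells, 5 held Gata3, 4 Icos, 4 Il7r, 2 Cd4 and none Cxcr6. The level of Foxp3 in the cytotoxic and gamma-delta T cells at 24 h was 89.3 CPM.

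Gata3 stood at 192, 124 and 310 CPM in the naïve, 24 h and 72 h gated T cells. The ratio of 72 h over 24 h was 2.51 (1.39 to 4.93), and that of 72 h over naïve, 1.62, had an interval of 0.995 to 2.73. Without the Trbc-only cells these ratios of Gata3 were 5.01 and 2.37. The share of cells with a Gata3 UMI was 31.8%, 16.7% and 45.3%. With each cell thinned to 1000 UMIs it was 20.9%, 8.33% and 9.46%, so the order of the naïve and 72 h shares changed with depth. Within the 110 cells with CD3 chain or Trac UMIs, Gata3 had 9, 3 and 43 UMIs (100, 47.2 and 237 CPM), and within the Trbc-only cells 13, 10 and 34 (531, 240 and 513 CPM). Klrg1, a receptor of effector lymphocytes, had 11, 3 and 48 UMIs. Il5, a type 2 cytokine, had 8 UMIs in 4 cells at 72 h and 0 in the other libraries.

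Il17a had 21 UMIs in 5 naïve cells, 4 in 2 cells at 24 h and 17 in 4 cells at 72 h, all in cells with CD3 chain or Trac UMIs. That was 183, 38.02 and 68.5 CPM, highest in the naïve cells. Csf2 stood at 236, 85.5 and 32.2 CPM and was likewise highest in the naïve cells, and of its 44 UMIs 37 lay in the Trbc-only cells. The level in the naïve cells rested on few of them, as 25 of the 27 naïve UMIs lay in 3 Trbc-only cells. By cells, Csf2 was found in 5, 3 and 6 of the gated T cells, or 11.4, 8.33 and 8.0%. Xcl1, a chemokine of cytotoxic and innate lymphocytes, stood at 349, 95.04 and 101 CPM. In the cells with CD3 chain or Trac UMIs alone it had 21, 6 and 1 UMIs, and in the Trbc-only cells 19, 4 and 24.

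Some genes of cytotoxic lymphocytes that the gate did not use were lower at 72 h than in the naïve cells, and Ccl5, given above, was not among them. Lag3, an inhibitory receptor, had 17, 4 and 3 UMIs (148, 38.02 and 12.1 CPM), a ratio of 72 h over naïve of 0.0814 (0.0153 to 0.282), and 0.031 without the Trbc-only cells. Cd160, a receptor of intraepithelial lymphocytes, stood at 245, 143 and 28.2 CPM, and the gamma chain gene Tcrg-C2 at 332, 105 and 52.4 CPM. Lag3 and Tcrg-C2 were lower at 72 h than in the naïve library in the cytotoxic and gamma-delta T cells too. There Lag3 stood at 346, 25.5 and 112 CPM and Tcrg-C2 at 887, 217 and 507 CPM, so these differences were not particular to the gated T cells. Of 7 genes of the CD8 and cytotoxic list compared between 72 h and naïve, Cd160, Cd8b1, Klrd1 and Nkg7 were at least 2-fold lower and none at least 2-fold higher, with a median log2 ratio of -1.12. Over all 2536 genes compared, 6.90% were at least 2-fold higher and 3.90% at least 2-fold lower, with a median of 0.00.

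**Figure D4:**
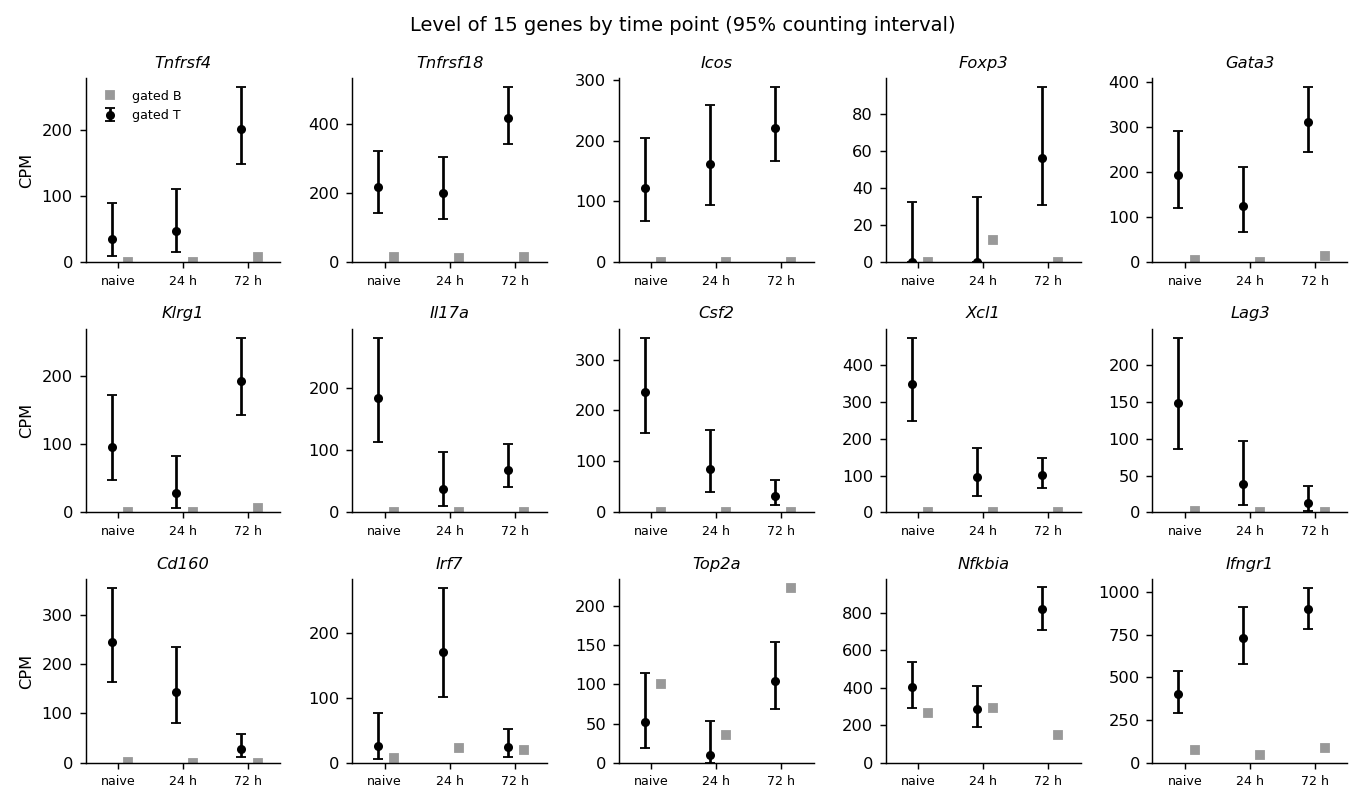
Each panel is 1 gene, with its level in CPM on a linear axis from 0 for the naïve, 24 h and 72 h libraries. Black points with bars are the gated T cells with 95% Poisson intervals, and grey squares are the gated B cells. Tnfrsf4 reaches 202 CPM at 72 h, Csf2 and Lag3 are highest in the naïve cells and Irf7 at 24 h.

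At 24 h, interferon-stimulated genes were higher than in the naïve cells. Of 9 compared, Isg15, Irf7, Bst2, Ifi27l2a and Ly6a were at least 2-fold higher and none was at least 2-fold lower, with a median log2 ratio of 1.03. Over all 1582 genes compared, 6.83% were at least 2-fold higher and 4.87% at least 2-fold lower, with a median of 0.03. Irf7, a transcription factor of the interferon response, had 3, 18 and 6 UMIs in the naïve, 24 h and 72 h cells. Its ratio of 24 h over naïve was 6.53 (1.91 to 34.6), and of 72 h over 24 h 0.14 (0.046 to 0.372). Irf7 was at 8.20, 23.5 and 20.2 CPM in the gated B cells. Ifi27l2a stood at 463, 1274 and 645 CPM in the gated T cells and at 287, 987 and 270 CPM in the gated B cells, which followed the same course.

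Fos, an immediate early gene of the AP-1 family that handling of cells can also raise, stood at 314, 855 and 254 CPM, a ratio of 24 h over naïve of 2.72 (1.83 to 4.12), and at 384, 505 and 425 CPM in the gated B cells. Nfkbia, the inhibitor of NF-kappa-B that NF-kappa-B itself induces, was highest at 72 h, at 402, 285 and 818 CPM. Its ratio of 72 h over naïve was 2.04 (1.47 to 2.87), and 3.52 without the Trbc-only cells, where the gated B cells gave 0.558. Ifngr1, a chain of the interferon gamma receptor, stood at 402, 732 and 899 CPM, while the gated B cells were at 73.8, 47.0 and 87.7 CPM.

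Cell division genes differed in both directions. Of 11 compared between 72 h and naïve, H2afz, Pclaf, Top2a, Birc5 and Tubb5 were at least 2-fold higher and Rrm2 at least 2-fold lower, with a median log2 ratio of 0.83. Mcm6, a replication helicase subunit outside that list, stood at 131 CPM in the naïve cells and 36.3 CPM at 72 h. Top2a had 6, 1 and 26 UMIs and Mki67 had 3, 1 and 15, the latter in 1, 1 and 5 cells. Top2a was at 100, 35.3 and 223 CPM in the gated B cells, where the share of dividing cells was not tested, so a low level of Top2a in a T cell is not read as division. Of 12 tissue residency genes compared between 72 h and naïve, 1 was at least 2-fold higher and none lower, with a median log2 ratio of 0.19. That gene was Crem, a cAMP-responsive transcription factor, with 1, 4 and 24 UMIs. The ratio of 72 h over naïve was 0.96 (0.725 to 1.28) for Thy1, 1.31 (0.918 to 1.90) for Cxcr6 and 1.56 (1.06 to 2.36) for Il7r.

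Genes of other cell types were among the largest ratios over naïve. At 24 h over naïve the 15 largest included the chemokines Ccl6 and Ccl9, the neutrophil gene S100a8 and the MHC class II genes H2-Eb1, H2-Ab1, H2-Aa and Cd74. Ccl6 had 1, 99 and 71 UMIs in the naïve, 24 h and 72 h cells. Of the 14 that could be compared in the gated B cells, 8 were at least 2-fold higher there too, and at 72 h over naïve 8 of 13 were. Of 9 monocyte and macrophage markers compared at 24 h over naïve in the gated T cells, 8 were at least 2-fold higher. The 16 markers of that list summed to 1441, 7565 and 4430 CPM in the gated T cells. In the gated B cells they summed to 3835, 6783 and 4656 CPM. These sums include Lyz2, whose level the choice of cells had capped, and they were not taken without it. Apoe alone stood at 157 CPM in the naïve gated T cells and at 2028 CPM in the naïve gated B cells. The sums in the gated B cells are therefore not read as a measure of free RNA. Cd68, C1qc, Chil3 and Cd14 were at 0 in the naïve T cells. The 9 neutrophil markers summed to 78.6, 798 and 806 CPM in the gated T cells and to 82.0, 600 and 648 CPM in the gated B cells, and Cxcr2 was at 0 in all 3 libraries of T cells. The neutrophil sums were thus higher in the later libraries in both cell types. So were the monocyte and macrophage sums, with Lyz2 capped. The MHC class II genes named above were not higher at 24 h in the gated B cells. The part of these genes in the other differences between libraries was not tested.

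Most MHC class II UMIs at 24 h lay in 1 cell. Cd74, H2-Aa, H2-Ab1 and H2-Eb1 had 636 UMIs in the 24 h gated T cells, and 533 of them were in a single cell of 9257 UMIs that also held 7 UMIs of Cd3g, 4 of Trac and 15 of the dendritic cell chemokine Ccl17. The summed level was 489, 6045 and 1677 CPM in the naïve, 24 h and 72 h cells, and 1073 CPM at 24 h without that cell. Cd74 alone then had a ratio of 72 h over 24 h of 1.45 instead of 0.25. The median share of the 4 genes in a cell's UMIs was 0.0089%, 0.095% and 0.152% in the naïve, 24 h and 72 h cells. The typical gated cell was thus also higher in the later libraries.

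**Figure D5:**
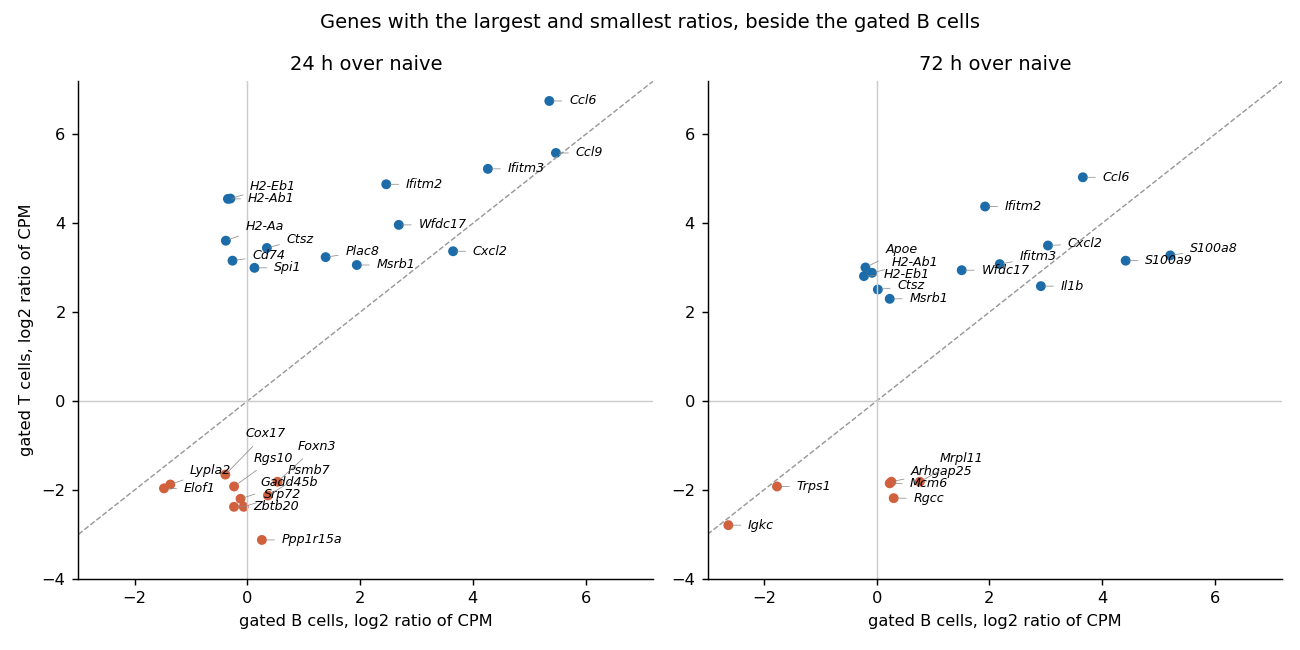
Each point is a gene among the 15 largest (blue) and the 15 smallest (orange) ratios of CPM that had enough UMIs in the gated B cells, for 24 h over naïve (left) and 72 h over naïve (right). The y axis is the log2 ratio in the gated T cells and the x axis that in the gated B cells, with equal ratios on the dashed line and 0 UMIs counted as 3. Ccl6, Ccl9, Ifitm3 and Cxcl2 are high on both axes, and the MHC class II genes, which B cells express themselves, are high in the gated T cells only.

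The gated T cells were compared with 218 cytotoxic and gamma-delta T cells, which met the same rule but held at least 2 UMIs of Gzma, Gzmb, Cd8a and Trdc, as UMIs summed per library and class with library as a term in edgeR's quasi-likelihood test. The classes were cut from the same cells' counts, so genes that go with the gate genes within a cell had to follow them. Of 2169 genes tested apart from the gate genes, 34 were higher in the gated T cells (1.57%) and 37 lower (1.71%) at an adjusted p under 0.05. This number rested on the libraries: 3 genes passed without the naïve library, 210 without the 24 h library and 37 without the 72 h library. The 3 were all lower in the gated T cells, so none of the genes named as higher passed without the naïve library.

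Higher in the gated T cells were Il7r, the interleukin-7 receptor, Maf, a transcription factor of helper cells, Cd28, Cd40lg, Cd44 and Gata3, each in 3 of 3 libraries. Il7r had 34, 44 and 115 UMIs in the naïve, 24 h and 72 h gated T cells and 12, 4 and 21 in the cytotoxic and gamma-delta cells. Its log2 fold was 2.56 (SE 0.286, edgeR adjusted p = 2.2e-05). Maf had a log2 fold of 2.42 (edgeR adjusted p = 0.0020) and Cd28 one of 2.03 (edgeR adjusted p = 0.011). Gata3 had a log2 fold of 1.56 (edgeR adjusted p = 0.014), which became 0.91 (edgeR adjusted p = 0.30) without the Trbc-only cells. Pxdc1, Arg1, Nrgn, Gpr183, Tnfrsf25 and Tmem64, the 6 with the largest folds, had too few UMIs to be tested without those cells.

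Lower in the gated T cells were 6 of 9 tested genes of the CD8 and cytotoxic list, Cd244, Cd8b1, Klrd1, Nkg7, Prf1 and Ccl5, with a list median log2 fold of -2.31 beside 0.01 over all genes. The largest difference was that of Dapk2, a kinase, with 5, 1 and 1 UMIs against 278, 9 and 81 and a log2 fold of -4.83 (edgeR adjusted p = 4.0e-07). Itgae, the integrin chain CD103 that holds T cells at the epithelium, had 3, 1 and 4 UMIs against 146, 8 and 49 and a log2 fold of -3.90 (edgeR adjusted p = 3.5e-06). Itga1, the collagen-binding integrin CD49a, had a log2 fold of -2.71 (edgeR adjusted p = 1.9e-04). Of 14 tissue residency genes tested, Cd44, Rora, Cxcr6 and Il7r were thus higher and Itgae and Itga1 lower in the gated T cells. None of 14 tested genes of T cell receptor signalling passed the threshold in either direction, with a median log2 fold of -0.06 and 298 of all genes at an unadjusted p under 0.05. In DESeq2, 29 genes passed, among them Il7r, Maf, Dapk2, Itgae and Itga1, while Cd28 (DESeq2 adjusted p = 0.30), Cd44 (0.21) and Gata3 (0.67) did not. Ccl5 lost its call without the Trbc-only cells (edgeR adjusted p = 0.087).

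Without a CD3 or constant chain UMI, only 22 cells (4, 8 and 10) held at least 2 UMIs of Thy1, Il7r, Rora, Ncr1 and Klrb1c. Against these, 35 genes were higher in the gated T cells (3.43% of 1020 tested), among them Lat, Lck and Cd2, and 41 lower (4.02%), among them Cd74, H2-Aa and the cystatin gene Cst3. Genes of antigen presentation were thus among those higher in the 22 cells. Whether innate lymphocyte genes were higher in them could not be judged, because the genes that defined the class were left out. Of 12 listed markers of natural killer and innate lymphoid cells only 1 was tested, and the gated T cells included the Trbc-only cells. With 4 naïve cells the comparison is weak: 2 genes passed without the 72 h library, 17 without the 24 h library and 142 without the naïve library.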

How the data were processed

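Single-cell RNA sequencing of 3 libraries was analysed, 1 per time point. The libraries were 10x Genomics 3′ libraries, aligned and counted by the authors with Cell Ranger 3.0.2 on GRCm38/mm10. Their filter dropped cells under 200 genes and cells above 10% mitochondrial UMIs. What they deposited is a matrix of raw UMI counts for 14148 genes. No further filter was applied and doublets were kept, and 3 barcodes occurred in more than 1 library. Total UMIs per library were 1865221, 10542346 and 5246731.

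The members and gene lists were chosen with earlier results of these data known. Genes named are those of 30 lists with at least 10 UMIs in the gated cells (8 of the listed genes were not measured), the 15 largest and 15 smallest ratios between libraries (at least 100 CPM in either, at least 20 UMIs in both, gate genes left out) or folds past the threshold between classes, the 20 leading genes over all other cells, and the 10 genes found most with Cxcr6. Some results are not reported here. Genes named for the Trbc-only cells, low-count genes given by their UMIs, and Fos, Nfkbia and Ifngr1 from the lists were picked after their values were seen.

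Levels are CPM of summed UMIs with exact Poisson intervals, shares have Clopper-Pearson intervals (a 0 has the limit of 3 counts) and ratios exact conditional Poisson intervals, at 95%. Past the fold means a ratio of at least 2 or at most 0.5, with 0 set to 3 counts. Classes were compared with edgeR 4.0.16 (filterByExpr, TMM, quasi-likelihood, library as a term, Benjamini-Hochberg, threshold 0.05) in R 4.3.3. Whether libraries are independent beyond their pools of mice is not given. With library as a term, p-values measure how the difference between classes varies over these 3 libraries, which are also 3 time points. On simulated data for the comparison with the cytotoxic and gamma-delta cells (2180 genes), 89.2% of the genes changed 4-fold and 22.8% of those changed 2-fold were recovered. The simulation gave every gene the same spread and the same fold in each library, so the share recovered in the real data can differ. Trbc1 and Trbc2 were aligned with Biopython 1.88. Alternatives were other gates, cell filters, removal of 54 cells with the highest Scrublet scores (scanpy 1.11.5), thinning to 1000 UMIs, other scalings, DESeq2 1.42.0 and each library left out. Leaving out the Trbc-only cells and the cell highest in MHC class II was added after the data were seen.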

Additional observations from a re-analysis of the deposited data

How the results depend on the processing

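No paired analysis between time points was possible because each is 1 library. The class comparisons were paired by library, and without that term (no replicate block) 33 genes passed the threshold against the cytotoxic and gamma-delta cells (32 of them among the 71) and 42 against the CD3-negative cells (34 of them among the 76). DESeq2 gave 29 (9 higher) and 45 (9 higher), testing every gene with at least 1 UMI gave 169 in the first, Lyz2 under 0.1% gave 19 in the second (without the 24 h library, which then held no CD3-negative cell), and leaving out the Trbc-only cells gave 42 in the second. Leaving out 1 library gave 3 to 210 and 2 to 142. The share of the library became 4.75% (naïve) and 4.60% (72 h) with 0 UMIs of the cytotoxic genes, 0.905% (24 h) and 3.87% (72 h) with Lyz2 under 0.1%, 0.995% (24 h) and 4.44% (72 h) without the Trbc-only cells, and 10.4, 34.3 and 41.0% of the lymphocytes of all gates. Genes at least 2-fold apart numbered 185 (24 h over naïve), 274 (72 h over naïve) and 296 (72 h over 24 h). With at least 50 UMIs they were 32, 55 and 54, thinned to 1000 UMIs 59, 74 and 84, and with Lyz2 under 0.1% 180 for 72 h over naïve and 185 for 72 h over 24 h. TMM scaling moved the median log2 ratio of 72 h over 24 h from -0.02 to 0.15 and the share of higher genes among those from 54.1 to 71.8%, and that of 72 h over naïve from 0.00 to 0.11. Cd74 reversed, to 0.893 (24 h over naïve) and 2.08 (72 h over 24 h) with Lyz2 under 0.1% and to 1.45 (72 h over 24 h) without the cell highest in MHC class II, which held most of its UMIs. Among named genes between libraries 829 other values kept their direction and side of the fold and 10 lost the fold, and between classes 607 kept their call and 163 lost it. For the other changes the cause was not tested. Depth limited what could be seen: 3 UMIs stand for 26.2, 28.5 and 12.1 CPM in the naïve, 24 h and 72 h gated T cells.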

Other observations

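Against all other cells of the series, the genes highest in the gated T cells by ratio of CPM were Icos, Tnfrsf25, Podnl1, Cxcr6 and Cd28, as a description of the gate. Icos had 86 UMIs in the 155 gated cells and 42 in all the other cells. Tnfrsf25, the receptor of the cytokine TL1A, was found in 42 gated cells with 51 UMIs, and Il18r1, the interleukin-18 receptor, in 45 with 62 UMIs.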
